A study of Mus musculus with 9 samples.

Results

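The genes described here are 10 targets of the transcription factor p53, chosen by name: Cdkn1a, Mdm2, Trp53inp1, Bax, Bbc3, Pmaip1, Ccng1, Zmat3, Phlda3 and Gdf15. They are 10 of the 46517 genes in the count tables, and all 10 had enough reads to be tested. Their RNA was measured in colonies grown from dissociated mouse intestinal stem cells for 4 days in non-degradable PEG, in degradable PEG or in Matrigel, with 3 libraries each. PEG gels are synthetic networks of polyethylene glycol, here in a kind that cells can degrade and a kind that they cannot, and Matrigel is a basement membrane extract of a mouse tumour. All 3 groups, the Matrigel controls included, were grown with R-spondin, noggin, EGF, CHIR99021 (a GSK3 inhibitor) and valproic acid. Valproic acid inhibits histone deacetylases, so every level below was measured in its presence, and no group without it was analysed here. The sources used here do not give genotype, strain, age or sex of the donor animals. They also do not say whether the 3 libraries of a group are separate cultures or animals, so a p-value measures the spread among these libraries alone, and that spread may be technical.

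p53 is a transcription factor that damaged DNA, activated oncogenes and other stresses stabilise, and it binds paired half-sites in or near its target genes. Its targets hold the cell cycle (Cdkn1a), start apoptosis at the mitochondrion (Bax, Bbc3, Pmaip1) and return p53 to a low level (Mdm2). In the intestinal epithelium p53 is best known for the apoptosis and arrest of crypt cells after irradiation. Several of these genes also answer to other transcription factors, among them ATF4 and CHOP of the integrated stress response for Pmaip1 and Gdf15.

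Each library held 38.0 to 47.2 M (1000000) reads assigned to genes, and mitochondrially encoded genes took 3.00% to 4.51% of them. The epithelial marker Epcam averaged 1170 ± 49.6 CPM in non-degradable PEG, 1144 ± 54.8 CPM in degradable PEG and 1278 ± 46.5 CPM in Matrigel (SD, n = 3 each), where CPM are counts per 1000000 scaled reads. Lgr5, the receptor that marks crypt base stem cells, averaged 198.3 ± 15.9 CPM in the non-degradable gel, 155 ± 27.2 CPM in the degradable gel and 195.3 ± 28.0 CPM in Matrigel. Neither gene passed the test in any comparison, but other markers of the same cell types did. Of 8 epithelial markers, 3 rose in non-degradable PEG over Matrigel and 5 rose in degradable PEG, with the keratin gene Krt19 among them in both gels. Of 8 stem cell markers, Ascl2 and Sox9 rose in both gels over Matrigel, Smoc2 fell in both, and Olfm4, Rgmb and Axin2 fell in non-degradable PEG. The summed level of the 8 stem cell markers was 2312 to 2377 CPM in non-degradable PEG and 2747 to 2938 CPM in degradable PEG, against 3164 to 3340 CPM in Matrigel, with no overlap between groups. Of 11 tested enterocyte markers, 5 (Apoa1, Sis, Fabp1, Alpi and Krt20) were higher in non-degradable than in degradable PEG, where 0.814% of all genes were. Against Matrigel, 3 of them rose and 3 fell in the non-degradable gel, and 4 fell in the degradable gel. The summed level of 11 secretory cell markers was 171 to 277 CPM in non-degradable PEG and 161 to 253 CPM in degradable PEG, against 751 to 1450 CPM in Matrigel. Of the 10 of these that were tested, 7 fell in the non-degradable gel, and 8 fell and Mmp7 rose in the degradable gel, each over Matrigel. Over all genes, 9.71% rose and 7.13% fell in non-degradable PEG against Matrigel, and 7.42% rose and 4.79% fell in degradable PEG. Of the defining markers of other cell types, Ptprc and Hbb-bs (blood), Cdh5 (endothelium), Col3a1, Dcn and Lum (fibroblasts) and Actg2 (smooth muscle) had 0 counts in every library. Other markers on those lists were detected: the summed level of 8 mesenchymal markers was 84.0 to 118 CPM in non-degradable PEG and 92.6 to 158 CPM in degradable PEG, against 125 to 273 CPM in Matrigel. Vim, which made up most of that sum, fell in non-degradable PEG over Matrigel (log2 fold change -1.22 ± 0.276), and the blood marker Itgam rose there, to 3.26 CPM in non-degradable PEG against 1.40 CPM in Matrigel. The part of these markers, and of the stem cell, enterocyte and secretory markers, in the results below was not tested. In bulk RNA a smaller share of cells of 1 type and less RNA per cell cannot be told apart.

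The clearest p53 sequence among these genes lies upstream of Cdkn1a, which encodes the CDK inhibitor p21. It is shown here because Cdkn1a was 1 of the genes that differed between matrices, together with the same stretch before Gdf15, the gene that differed most. Both are read from the RefSeq promoter table of GRCm38.p6 and end at the base before the annotated gene. In Cdkn1a the capitals mark p53 half-sites, and in Gdf15 they mark the letters CATG, which stand at the centre of many p53 half-sites.
Cdkn1a, chr17:29090729-29090975, plus strand: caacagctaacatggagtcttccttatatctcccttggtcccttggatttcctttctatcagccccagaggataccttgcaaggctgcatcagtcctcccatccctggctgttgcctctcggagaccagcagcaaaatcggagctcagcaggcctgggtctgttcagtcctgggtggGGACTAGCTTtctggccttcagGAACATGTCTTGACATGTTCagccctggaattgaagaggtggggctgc
Gdf15, chr8:70632457-70632706, minus strand: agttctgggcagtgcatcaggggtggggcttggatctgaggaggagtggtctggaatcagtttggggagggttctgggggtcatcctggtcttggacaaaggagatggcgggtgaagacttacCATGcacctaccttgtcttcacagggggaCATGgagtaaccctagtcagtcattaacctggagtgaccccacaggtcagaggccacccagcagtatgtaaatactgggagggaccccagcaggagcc
The promoter table held 7 of the 10 genes, in 11 windows of 300 bases (250 before and 50 after a gene start), and did not list Trp53inp1, Pmaip1 and Zmat3. The published p53 consensus, a pair of 10-base half-sites with a gap of 0 to 13 bases, was searched on both strands. Without a mismatch it was found in 1 of the 11 windows, that of Cdkn1a, and in 24 of all 32851 windows of the table (0.0731%). That match runs over chr17:29090906-29090937, with a gap of 12 bases, and ends in the half-site GAACATGTCT. The same half-site opens a gapless pair at chr17:29090928-29090947, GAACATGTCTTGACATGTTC, which has 1 mismatch to the consensus and starts 51 bases before 1 annotated Cdkn1a start. The other annotated start lies 2841 bases after the first base of that pair. With up to 1 mismatch, 0.417% of all windows held a match, and none of the other 6 genes did. With up to 2 mismatches, 2.12% of all windows held one, and Bax, which forms pores in the outer mitochondrial membrane, was added with the pair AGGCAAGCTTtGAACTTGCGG at chr7:45467079-45467099 on the minus strand. The letters CATG stood in the 250 upstream bases of 3 of the 11 windows (Bax, Cdkn1a and Gdf15), against 53.9% of all windows. The letters ACATGT, which contain CATG, read the same on both strands as it does and span the centre of each half-site of the gapless Cdkn1a pair, stood in the Cdkn1a window only, against 4.58% of all windows. A match is a description of the sequence and not a bound site, and p53 is known to use sites outside such windows, as in the first intron of Mdm2.

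Set against Matrigel, colonies in non-degradable PEG had more RNA of Gdf15, Cdkn1a and Pmaip1. These 3 of the 10 genes rose and none fell, where 16.8% of all 14870 genes tested changed and 9.71% rose (edgeR quasi-likelihood test with Benjamini-Hochberg adjustment over all tested genes, adjusted p under 0.05). The libraries did not overlap for 4 of the 10, the same 3 and Mdm2, against 43.4% of all genes. The median log2 fold change of the 10 was 0.22, and that of all genes was -0.0021. Blocking on the replicate number gave 3877 changed genes rather than 2504, and 4 rather than 3 of the p53 targets then passed. In degradable PEG against Matrigel, 4 of the 10 rose (Gdf15, Pmaip1, Cdkn1a and Mdm2) and none fell, where 12.2% of all genes changed and 7.42% rose. The libraries of those 4 did not overlap, against 30.4% of all genes, and the median was 0.28, against -0.0163 for all genes. The count of 4 was 2 without Matrigel replicate 1, without Matrigel replicate 3 or without degradable PEG replicate 3. All genes changed were then 1086, 1177 and 1178 rather than 1815. Both comparisons use the same 3 Matrigel libraries, so they are not independent of each other. In non-degradable PEG against degradable PEG, Pmaip1 fell and no other target passed, where 1.28% of all genes changed and 0.464% fell. The libraries did not overlap for 4 targets, all lower in non-degradable PEG (Mdm2, Bbc3, Pmaip1 and Gdf15), against 19.0% of all genes. At an unadjusted p under 0.05 the counts were 4, 5 and 3 of the 10 genes in the 3 comparisons. Over all 14870 genes they were 4848, 4057 and 2203.

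**Figure D1:**
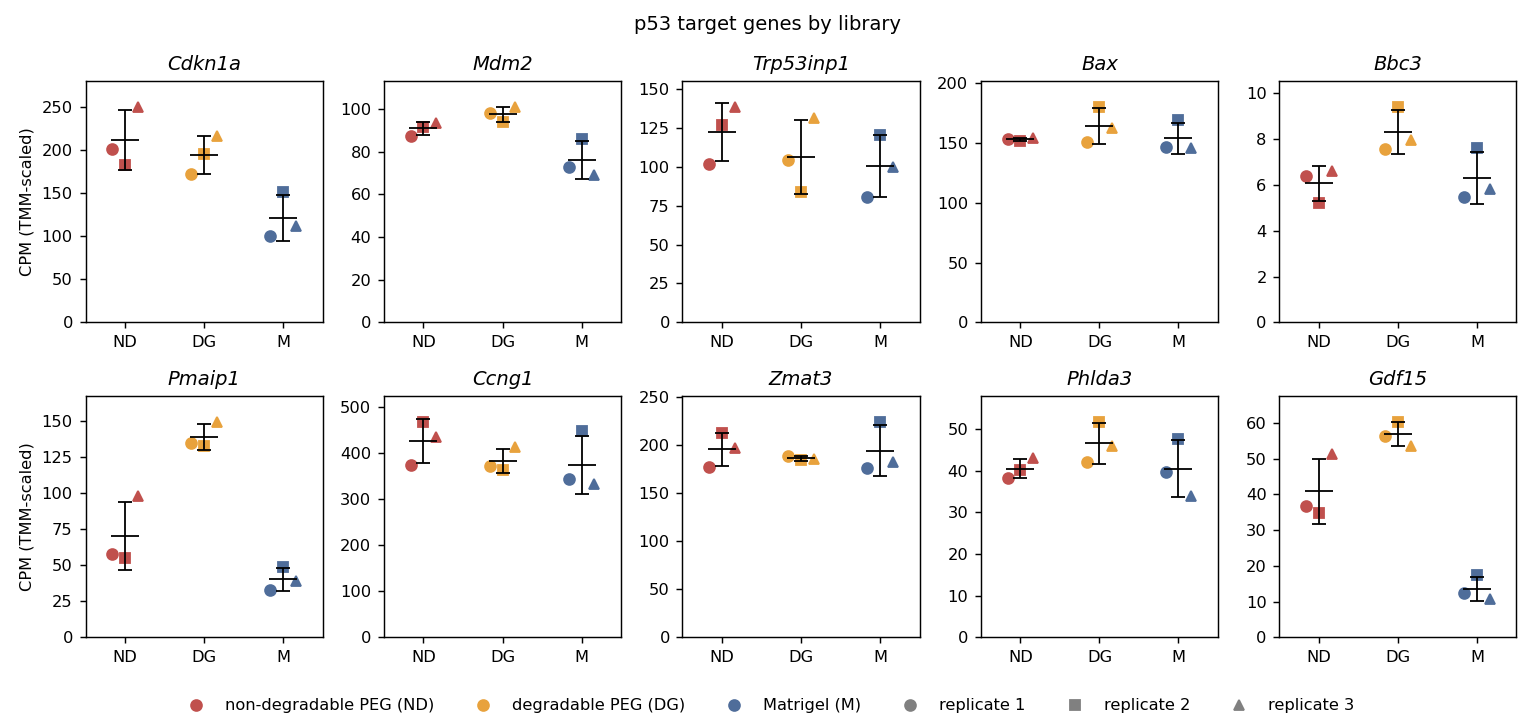
Scaled counts (CPM, vertical axis from 0) of the 10 p53 target genes in non-degradable PEG (ND), degradable PEG (DG) and Matrigel (M). Each symbol is 1 library and its shape the replicate number, and bars show the mean and SD of 3 libraries. Cdkn1a, Pmaip1 and Gdf15 lie above all Matrigel libraries in both PEG gels, and the symbols of Zmat3, Bax and Trp53inp1 overlap between all matrices.

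Cdkn1a (ENSMUSG00000023067, chr17:29090976-29100727, plus strand, GRCm38) encodes p21, which blocks cyclin-dependent kinases and is the main arrest gene downstream of p53. It had 202, 183 and 250.03 CPM in non-degradable PEG and 172, 195 and 216 CPM in degradable PEG, against 99.8, 151 and 111 CPM in Matrigel. Every PEG library lay above every Matrigel library, and the PEG gels overlapped. The log2 fold change was 0.81 ± 0.157 (SE, 95% interval 0.46 to 1.15) in non-degradable PEG, a 1.75-fold rise with an edgeR adjusted p of 0.00589. In degradable PEG it was 0.69 ± 0.157 (0.34 to 1.03), a 1.61-fold rise with an edgeR adjusted p of 0.0158. Over 16 alternatives this adjusted p ran from 1.12e-04 to 0.0622, and the call in degradable PEG was lost without Matrigel replicate 1 (adjusted p = 0.0600), Matrigel replicate 3 (0.0622) or degradable PEG replicate 3 (0.0599). Between non-degradable and degradable PEG the difference was 0.12 ± 0.156 (-0.22 to 0.46, adjusted p = 0.746). GENCODE places 273 exon bases of AC167363.2 on the opposite strand of Cdkn1a. That gene is not among the rows counted, and the strand setting of the counting is unknown from the sources used here.

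Mdm2 (ENSMUSG00000020184, chr10:117688875-117710758, minus strand) encodes the ubiquitin ligase that degrades p53 and is itself induced by it, which closes a negative feedback loop. It had 87.5, 91.6 and 93.4 CPM in non-degradable PEG and 97.9, 93.8 and 101 CPM in degradable PEG, against 73.0, 86.0 and 68.9 CPM in Matrigel. No library of either PEG gel overlapped with Matrigel, though the gap to Matrigel replicate 2 was small. In degradable PEG it rose 1.28-fold (log2 fold change 0.36 ± 0.0828, 95% interval 0.18 to 0.54, edgeR adjusted p = 0.0163). Over 16 alternatives that adjusted p ran from 0.00247 to 0.0686, and the call was lost without Matrigel replicate 1 (0.0650), Matrigel replicate 3 (0.0686) or degradable PEG replicate 3 (0.0598). In non-degradable PEG the log2 fold change was 0.26 ± 0.0828 (0.08 to 0.44), which did not pass (edgeR adjusted p = 0.0539). With the replicate number as a block its adjusted p was 0.0420, and without Matrigel replicate 2 it was 0.0142 at a log2 fold change of 0.36, within a range of 0.0142 to 0.180 over 16 alternatives. The difference between non-degradable and degradable PEG was -0.10 ± 0.0827 and did not pass (adjusted p = 0.592).

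Among the apoptosis genes, Pmaip1 (ENSMUSG00000024521) stood apart from Bax and Bbc3. Pmaip1 encodes NOXA, a BH3-only protein that neutralises MCL1. It had 57.9, 54.9 and 97.6 CPM in non-degradable PEG and 134, 133 and 149 CPM in degradable PEG, against 33.0, 48.4 and 38.9 CPM in Matrigel. No group overlapped with another, and degradable PEG was the highest and Matrigel the lowest. The rise over Matrigel was 1.75-fold in non-degradable PEG (log2 fold change 0.81 ± 0.201, 95% interval 0.37 to 1.25, edgeR adjusted p = 0.0200). In degradable PEG it was 3.46-fold (1.79 ± 0.204, interval 1.34 to 2.24, edgeR adjusted p = 3.25e-04). Non-degradable PEG held 0.506 times the Pmaip1 level of degradable PEG (-0.98 ± 0.199, interval -1.42 to -0.55, edgeR adjusted p = 0.0405).

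Non-degradable PEG replicate 3 had the highest Pmaip1 level of its group. Without it the log2 fold change of non-degradable PEG over Matrigel was 0.49 (edgeR adjusted p = 0.0475) and that against degradable PEG was -1.30 (0.00192). The call against Matrigel was lost without Matrigel replicate 1 (0.0781) or Matrigel replicate 3 (0.0585), and its adjusted p ran from 1.25e-04 to 0.0781 over 16 alternatives. The call between the PEG gels was lost without non-degradable PEG replicate 1 (0.166) or 2 (0.116), any 1 of the 3 degradable PEG libraries (0.0605 to 0.136) or Matrigel replicate 3 (0.0643), within a range of 2.59e-05 to 0.166. The call of degradable PEG over Matrigel held in all 16 alternatives.

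Bax and Bbc3 did not pass in any comparison. Bax (ENSMUSG00000003873, chromosome 7) had 153, 151 and 154 CPM in non-degradable PEG and 151, 180 and 163 CPM in degradable PEG, against 147, 169 and 145 CPM in Matrigel. All 3 groups overlapped, and the 95% intervals of the log2 fold change were -0.19 to 0.17 in non-degradable PEG and -0.08 to 0.28 in degradable PEG over Matrigel (edgeR adjusted p = 0.960 and 0.493). GENCODE gives Bax 192 exon bases in common with Gm45808 on the same strand, a gene that is not among the rows counted. Bbc3 (ENSMUSG00000002083, chromosome 7) encodes PUMA, the BH3-only protein that p53 needs for much of its killing in the gut. It was the lowest of the 10, with 205 to 380 reads per library. Its levels were 6.37, 5.21 and 6.60 CPM in non-degradable PEG and 7.57, 9.40 and 7.96 CPM in degradable PEG, against 5.45, 7.60 and 5.84 CPM in Matrigel. The degradable PEG libraries lay above all non-degradable ones but overlapped with Matrigel. The log2 fold change was 0.40 ± 0.162 in degradable PEG over Matrigel (edgeR adjusted p = 0.139) and -0.46 ± 0.163 in non-degradable against degradable PEG (0.238), so neither passed. In non-degradable PEG over Matrigel it was -0.06 ± 0.164 (0.846).

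Gdf15 (ENSMUSG00000038508, chr8:70629393-70632456, minus strand) encodes a secreted stress hormone of the TGF-beta family. It had 36.6, 34.8 and 51.4 CPM in non-degradable PEG and 56.5, 60.4 and 53.7 CPM in degradable PEG, against 12.4, 17.4 and 10.8 CPM in Matrigel. The groups did not overlap, in the order that Pmaip1 also showed. The rise over Matrigel was 3.02-fold in non-degradable PEG (log2 fold change 1.59 ± 0.180, 95% interval 1.20 to 1.99, edgeR adjusted p = 2.61e-04). In degradable PEG it was 4.19-fold (2.07 ± 0.181, interval 1.67 to 2.47, edgeR adjusted p = 9.38e-05). Both calls held in all 16 alternatives. Between non-degradable and degradable PEG the log2 fold change was -0.47 ± 0.172 (-0.85 to -0.10), which did not pass after adjustment (edgeR adjusted p = 0.245). Gdf15 has a stretch of 250 upstream bases with no p53 consensus match at up to 2 mismatches, as printed above.

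The other 4 genes showed no change that passed. Ccng1 (ENSMUSG00000020326, chromosome 11) encodes cyclin G1, which brings a phosphatase to MDM2, and had 373, 467 and 434 CPM in non-degradable PEG and 372, 363 and 412 CPM in degradable PEG, against 344, 447 and 332 CPM in Matrigel. Zmat3 (ENSMUSG00000027663, chromosome 3) encodes an RNA-binding zinc finger protein and had 177, 212 and 196 CPM in non-degradable PEG and 189, 184 and 185 CPM in degradable PEG, against 176, 224 and 182 CPM in Matrigel. The groups overlapped for both genes in every comparison. Trp53inp1 (ENSMUSG00000028211, chromosome 4), whose protein acts in p53 activation and autophagy, had 102, 127 and 138 CPM in non-degradable PEG and 105, 83.7 and 131 CPM in degradable PEG, against 80.7, 121 and 100.025 CPM in Matrigel. Phlda3 (ENSMUSG00000041801, chromosome 1), whose protein competes with AKT for membrane lipids, had 38.3, 40.2 and 43.0 CPM in non-degradable PEG and 42.1, 51.8 and 45.9 CPM in degradable PEG, against 39.7, 47.7 and 34.0 CPM in Matrigel. These groups overlapped too, and the spread within a matrix was as wide as the differences between matrices. The log2 fold changes of the 4 genes over Matrigel lay between 0.00 and 0.29 in non-degradable PEG and between -0.06 and 0.20 in degradable PEG. Their 95% intervals over Matrigel spanned -0.26 to 0.67 in the non-degradable gel and -0.31 to 0.47 in the degradable gel, and changes within those bounds cannot be told from 0 at this spread.

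**Figure D2:**
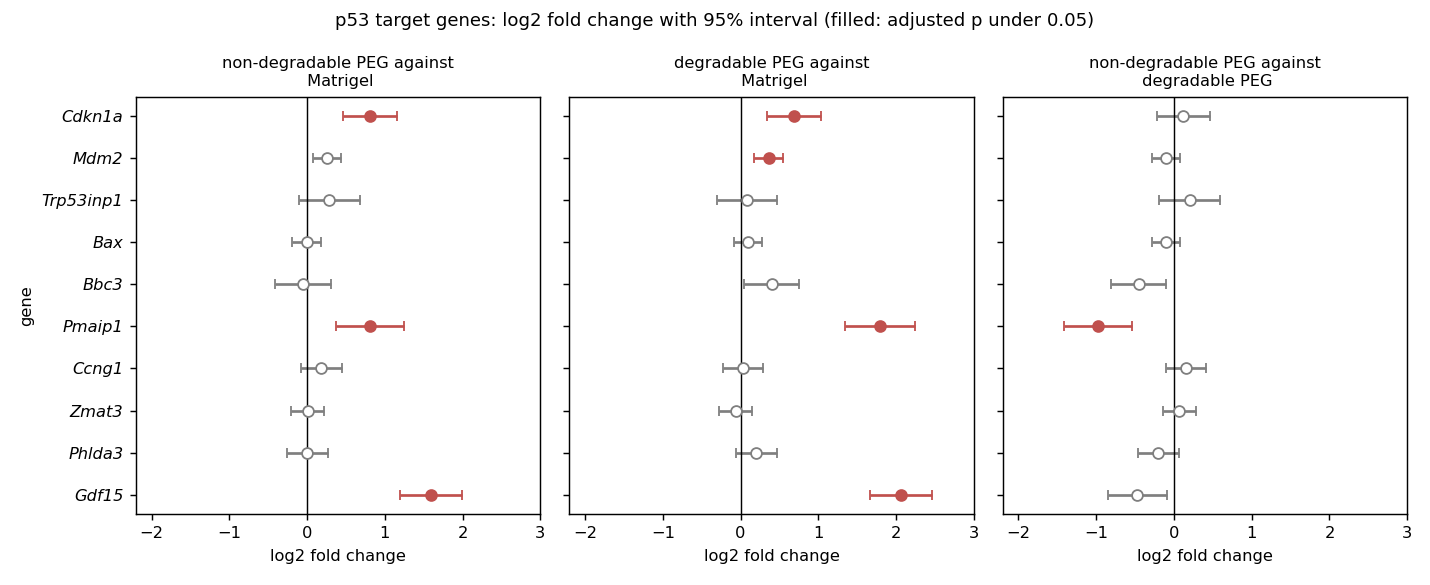
Log2 fold change (horizontal axis) of each of the 10 p53 target genes in the 3 comparisons, with the 95% interval of the edgeR fit as a bar. Filled points have an adjusted p under 0.05. Gdf15 lies furthest to the right in both comparisons with Matrigel, at 1.59 and 2.07, and Pmaip1 is the only filled point between the PEG gels, at -0.98.

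The 10 genes also differed in how abundant they were. Expressed per kilobase of exon, Ccng1 and Bax had the highest levels in all 3 matrices, at 121 ± 13.6 and 97.0 ± 0.901 CPM per kilobase in the non-degradable gel, 109 ± 7.44 and 104 ± 9.46 in the degradable gel, and 107 ± 18.1 and 97.6 ± 8.46 in Matrigel (SD, n = 3). The libraries of Ccng1 and Bax overlapped in degradable PEG and in Matrigel, so their order holds in non-degradable PEG only. Cdkn1a held rank 3 by its mean everywhere, at 59.5 ± 9.79 CPM per kilobase in non-degradable PEG, 54.7 ± 6.17 in degradable PEG and 34.0 ± 7.55 in Matrigel. Its Matrigel libraries overlapped with those of Phlda3 at rank 4 (28.1 at the lowest for Cdkn1a, 30.6 at the highest for Phlda3). Bbc3 ranked last everywhere, at 2.85 ± 0.351 CPM per kilobase in the non-degradable gel, 3.91 ± 0.453 in the degradable gel and 2.96 ± 0.539 in Matrigel, below the other 9 genes in every library of the same matrix. Pmaip1 and Gdf15 stood higher in the order in the PEG gels than in Matrigel, and Zmat3, which passed no test, stood lower, at rank 9 in both gels against rank 5 in Matrigel. Pmaip1 stood at 25.7 ± 8.73 CPM per kilobase and rank 5 in non-degradable PEG and at 50.8 ± 3.37 and rank 4 in degradable PEG, against 14.7 ± 2.83 and rank 8 in Matrigel. Gdf15 stood at 22.1 ± 4.93 and rank 6 in non-degradable PEG and at 30.7 ± 1.82 and rank 5 in degradable PEG, against 7.31 ± 1.84 and rank 9 in Matrigel. In degradable PEG the Pmaip1 libraries overlapped with those of Cdkn1a, whereas in Matrigel they overlapped with those of Mdm2, Trp53inp1 and Zmat3. Gdf15 in Matrigel overlapped with neither of its neighbours in rank, Pmaip1 and Bbc3. From rank 4 to rank 9 in non-degradable PEG each gene overlapped with the next, so neighbours there were not separated. Genes further apart could be: Phlda3 at rank 4 (24.6 to 27.6) lay above Trp53inp1, Mdm2 and Zmat3 (at most 21.4, 18.4 and 18.5).

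**Figure D3:**
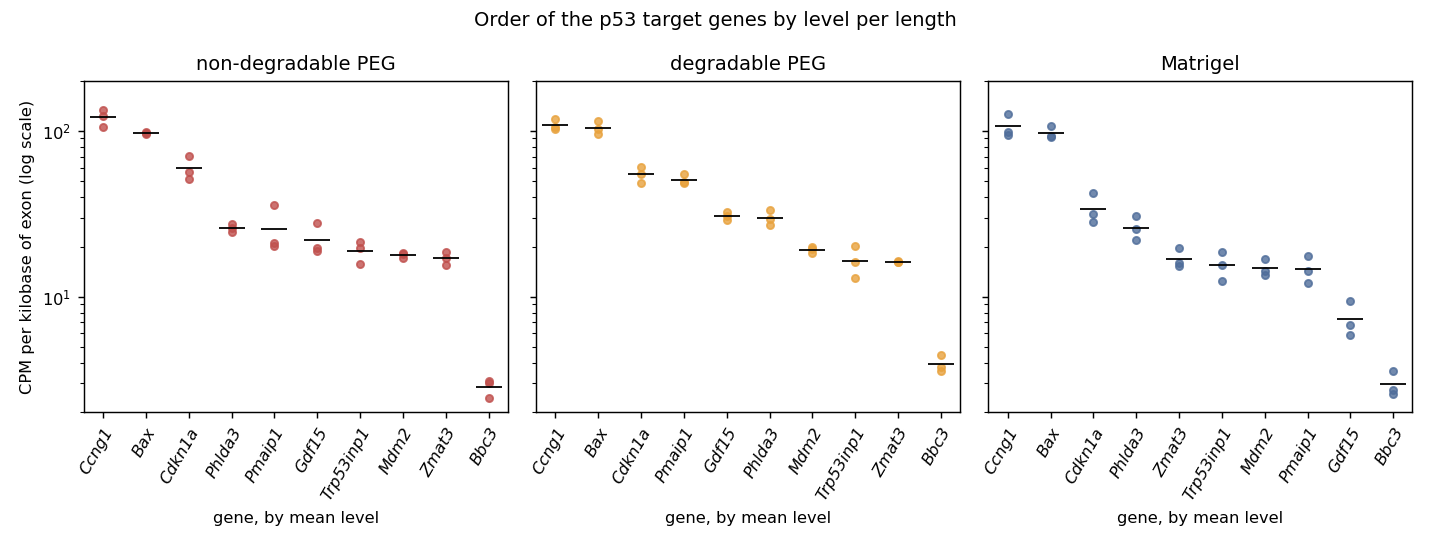
Level of each p53 target gene as CPM per kilobase of exon (log axis), ordered by its mean within non-degradable PEG, degradable PEG and Matrigel. Points are libraries and lines are means of 3. Pmaip1 stands at 14.7 and Gdf15 at 7.31 in Matrigel, and both move up the order in the PEG gels, while Bbc3 is last in all 3.

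In Matrigel and in non-degradable PEG, most of the 10 genes were highest in the same library, which was not so in degradable PEG. Matrigel replicate 2 had the highest level of all 3 Matrigel libraries for 10 of the 10 genes, against 29.4% of all tested genes and 29 of 55 other p53 targets. Its median deviation from the Matrigel mean was 0.28 on the log2 scale (0.14 to 0.39 over the 10 genes), against 0.0023 for all genes. Non-degradable PEG replicate 3 was the highest for 8 of the 10, against 39.1% of all genes and 33 of 55 other targets, and Pmaip1 deviated most there, by 0.53. In degradable PEG the highest library was replicate 3 for 5 genes, replicate 2 for 4 and replicate 1 for 1, against 30.6%, 35.2% and 34.3% of all genes and 35, 17 and 3 of 55 other targets. Matrigel replicate 2 and non-degradable PEG replicate 3 were also the deepest libraries of their groups, at 47.2 and 44.8 M assigned reads. In degradable PEG replicate 2 was the deepest, at 39.2 M, and replicate 3 had 38.8 M. The part of depth in this pattern was not tested. Without Matrigel replicate 2, Cdkn1a was higher by 1.00 in the non-degradable gel and 0.89 in the degradable gel on the log2 scale, Gdf15 in those gels by 1.82 and 2.30, Pmaip1 by 0.96 and 1.95, and Mdm2 by 0.36 and 0.47, all with an edgeR adjusted p under 0.05. Matrigel replicate 2 was the highest Matrigel library for all 10 genes, so leaving it out was bound to enlarge these rises. Their size without it is therefore no test of them. Without Matrigel replicate 1, Cdkn1a was higher by 0.68 in the non-degradable gel and 0.57 in the degradable gel. Gdf15 was then higher by 1.53 and 2.01, Pmaip1 by 0.68 and 1.67, and Mdm2 by 0.23 and 0.34. The calls lost without Matrigel replicate 1 or 3 are given above.

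**Figure D4:**
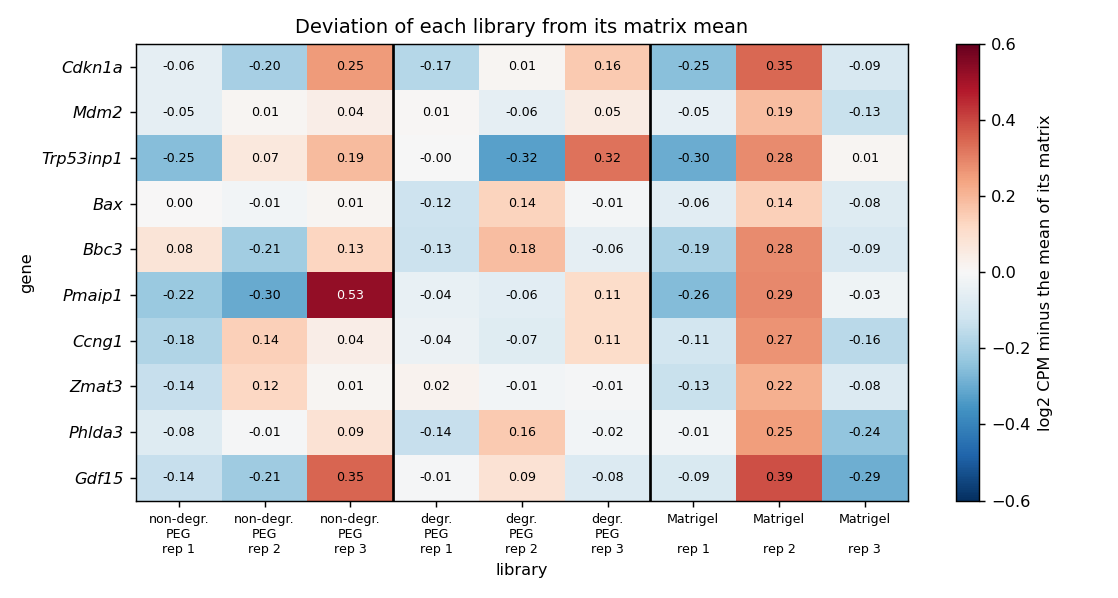
Deviation of each library from the mean of its own matrix (log2 CPM, colour and printed value) for the 10 p53 target genes, with non-degradable PEG at the left, degradable PEG in the middle and Matrigel at the right. The column of Matrigel replicate 2 is above its mean for all 10 genes, by 0.14 to 0.39, and Pmaip1 in non-degradable PEG replicate 3 has the largest deviation, 0.53.

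The RNA of p53 itself did not rise in either PEG gel over Matrigel. Trp53 (chromosome 11) had 153, 136 and 128 CPM in non-degradable PEG and 190.1, 186 and 158 CPM in degradable PEG, against 196, 169 and 167 CPM in Matrigel. All non-degradable PEG libraries lay below those of the other matrices. It fell in non-degradable PEG against Matrigel (log2 fold change -0.36 ± 0.0971, 95% interval -0.57 to -0.14, edgeR adjusted p = 0.0294) and differed by 0.01 ± 0.0968 in degradable PEG against Matrigel (adjusted p = 0.980). The call was lost without Matrigel replicate 1 (0.111) or 2 (0.0548) or without non-degradable PEG replicate 2 (0.0746) or 3 (0.118), and its adjusted p ran from 0.00329 to 0.118 over 16 alternatives. p53 is mostly controlled through the stability of its protein, which was not measured. Of 22 genes for p53 and its regulators 20 were tested, and Cdkn2a alone rose, in each PEG gel against Matrigel, while Trp53 alone fell, in non-degradable PEG. Over all genes, 9.71% rose and 7.13% fell in the non-degradable gel, and 7.42% rose and 4.79% fell in the degradable gel. The counts of this list were thus not above the background. The median log2 fold change of the list over Matrigel was -0.11 in the non-degradable gel and -0.09 in the degradable gel. Cdkn2a, whose locus encodes the CDK inhibitor p16 and ARF, an inhibitor of MDM2, had 9.48 ± 0.774 CPM in non-degradable PEG and 8.40 ± 0.858 CPM in degradable PEG, against 3.00 ± 0.447 CPM in Matrigel (SD, n = 3). Its log2 fold changes were 1.66 ± 0.151 in the non-degradable gel and 1.49 ± 0.151 in the degradable gel (edgeR adjusted p = 1.03e-04 and 2.04e-04), and gene counts do not separate the p16 and ARF transcripts. Mdm4, a relative of MDM2 that restrains p53, had log2 fold changes of 0.04 in non-degradable and -0.06 in degradable PEG against Matrigel and did not pass (adjusted p = 0.866 and 0.806). Ppm1d, a phosphatase induced by p53 that switches the response off, had -0.17 in the non-degradable gel and 0.02 in the degradable gel and did not pass either (0.161 and 0.906).

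A wider list of 57 other p53 targets, of which 55 were tested, moved in part. In non-degradable PEG against Matrigel, 11 rose, 2 fell and 42 did not pass, with a median log2 fold change of 0.16, where 9.71% of all genes rose. With the replicate number as a block 18 rose, but all genes changed, in either direction, then numbered 3877 rather than 2504. In degradable PEG against Matrigel, 11 rose and 1 fell, with a median of 0.12, where 7.42% of all genes rose, and none passed between the PEG gels. Lif, a cytokine, had 8.48 ± 1.54 CPM in non-degradable PEG and 12.0 ± 0.962 CPM in degradable PEG, against 2.72 ± 0.357 CPM in Matrigel (edgeR adjusted p = 1.60e-04 and 4.06e-05). Btg2, an antiproliferative regulator of mRNA decay, had 249 ± 85.9 CPM in the non-degradable gel and 329.6 ± 38.1 CPM in the degradable gel, against 109 ± 12.0 CPM in Matrigel (0.00220 and 5.15e-04). Plk3, a stress-responsive kinase, rose by 1.59 ± 0.263 in the non-degradable gel and 1.87 ± 0.264 in the degradable gel on the log2 scale (0.00244 and 0.00114). The receptor tyrosine kinase gene Epha2 rose by 0.68 ± 0.159 in the non-degradable gel and 1.19 ± 0.160 in the degradable gel (0.0146 and 8.80e-04). The Epha2 call in non-degradable PEG was lost when Matrigel replicate 1 (0.0545) or replicate 3 of non-degradable PEG (0.0550) was left out, within a range of 1.33e-04 to 0.0550 over 16 alternatives. Btg2 and Plk3 are also known as immediate early genes.

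The following genes of the same list were picked after their values were seen, as targets best known from the DNA damage response and from metabolism. Aen, an apoptosis-enhancing nuclease, had 74.3 CPM in non-degradable PEG and 77.4 CPM in degradable PEG, against 80.1 CPM in Matrigel (edgeR adjusted p = 0.317 and 0.697). Ddb2, which recognises ultraviolet lesions, had 20.5 CPM in the non-degradable gel and 20.3 CPM in the degradable gel, against 22.6 CPM in Matrigel (0.426 and 0.419). Eda2r, a receptor of the TNF receptor family, had 28.3 CPM in the non-degradable gel and 25.6 CPM in the degradable gel, against 29.8 CPM in Matrigel (0.815 and 0.467). None of these 3 passed in either gel. Sfn, which encodes the checkpoint protein 14-3-3 sigma, rose to 40.2 CPM in the non-degradable gel and 36.3 CPM in the degradable gel, against 24.8 CPM in Matrigel (0.00511 and 0.0208). Tigar, a fructose bisphosphatase, rose to 60.6 CPM in the non-degradable gel and 62.3 CPM in the degradable gel, against 46.2 CPM in Matrigel (0.0289 and 0.0232).

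**Figure D5:**
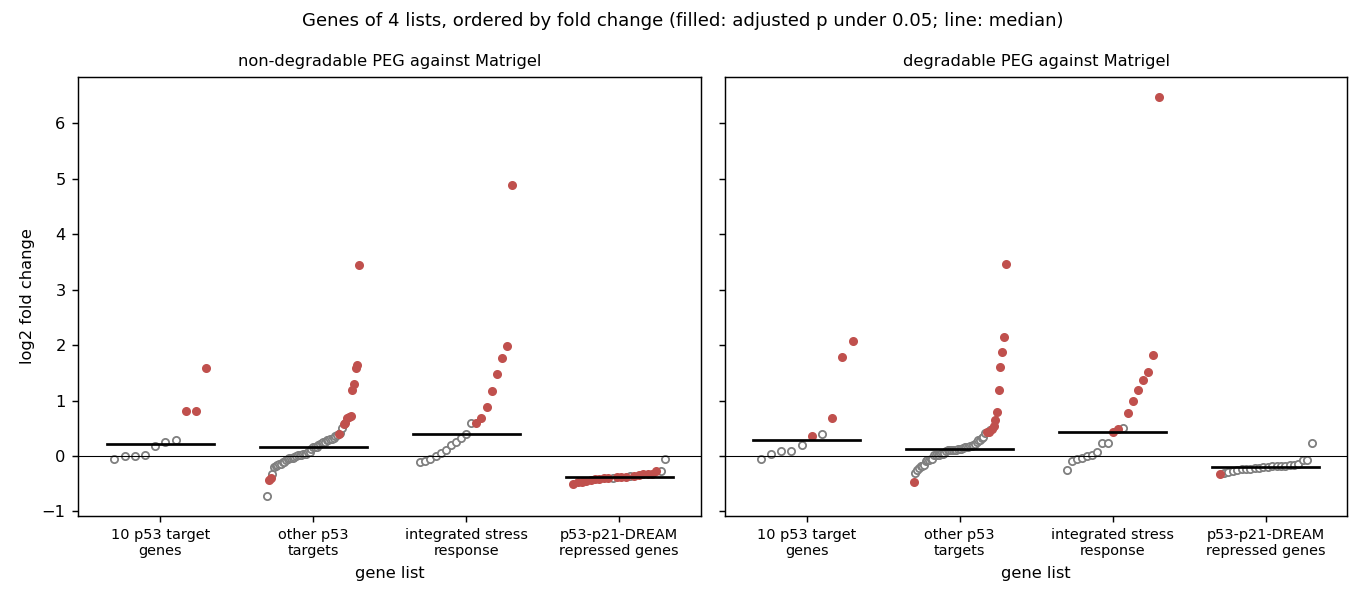
Log2 fold change (vertical axis) of each tested gene of 4 lists in non-degradable PEG (left) and degradable PEG (right) against Matrigel, ordered within a list, with the median as a line. Filled points have an edgeR adjusted p under 0.05. The repressed genes lie below 0 as a block in non-degradable PEG, with a median of -0.38 and 18 of 22 filled, and the highest point in both panels is Atf3, at 4.89 and 6.48.

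Partners of p21 and of the apoptosis genes were read from further lists. Of 23 tested BCL2 family and caspase genes, 2 rose and 1 fell in non-degradable PEG against Matrigel, and 5 rose and 1 fell in degradable PEG, with medians of 0.05 and 0.01. Over all genes, 9.71% rose and 7.13% fell in the first of these comparisons, and 7.42% rose and 4.79% fell in the other, so the count in non-degradable PEG was near the background. Bok, a BAX-like effector, separated the gels, with 41.2 ± 3.10 CPM in non-degradable PEG and 67.1 ± 6.62 CPM in degradable PEG, against 39.9 ± 3.44 CPM in Matrigel. It rose by 0.75 ± 0.0945 in degradable PEG over Matrigel (edgeR adjusted p = 5.78e-04) and fell in non-degradable against degradable PEG, with a log2 fold change of -0.70 ± 0.0946 (0.0111). Birc3, which inhibits apoptosis, had 15.1 ± 1.09 CPM in the non-degradable gel and 16.9 ± 0.754 CPM in the degradable gel, against 9.30 ± 0.276 CPM in Matrigel (7.17e-04 and 2.56e-04). Bcl2a1d, an anti-apoptotic family member, rose in both gels but stayed below 1 CPM in every library (0.00470 and 0.0217), and reads of its near-identical copies make it uncertain. Bcl2l11, which encodes the BH3-only protein BIM, rose in degradable PEG over Matrigel (0.43 ± 0.112, 0.0292), and its difference between the gels did not pass (0.365). Casp6, an executioner caspase, fell to 43.4 ± 0.841 CPM in the non-degradable gel and 45.4 ± 1.02 CPM in the degradable gel, against 54.2 ± 4.07 CPM in Matrigel (0.0109 and 0.0359). The calls of Bcl2a1d, Bcl2l11 and Casp6 in degradable PEG were lost without degradable PEG replicate 3 (0.0915, 0.111 and 0.113) or without Matrigel replicate 1 (0.0793, 0.103 and 0.148), within ranges of 0.0181 to 0.0915, 0.00655 to 0.111 and 0.0150 to 0.148 over all alternatives. Casp6 there was lost in 9 of 16 alternatives. The Casp6 call in non-degradable PEG was lost without its replicate 3 (0.0516, range 0.00113 to 0.0516).

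Of 21 CDK inhibitors and their CDK and cyclin partners, 5 rose and 4 fell in non-degradable PEG against Matrigel, where 9.71% of all genes rose and 7.13% fell. In degradable PEG 4 rose and 1 fell, where 7.42% of all genes rose and 4.79% fell. The medians were -0.15 in the non-degradable gel and -0.05 in the degradable gel. Cdkn2b, the CDK4 and CDK6 inhibitor p15, had 19.8 ± 5.54 CPM in non-degradable PEG and 12.0 ± 2.31 CPM in degradable PEG, against 4.93 ± 0.987 CPM in Matrigel (edgeR adjusted p = 2.49e-04 and 0.00347). Ccnd2, a D-type cyclin, had 1270 ± 102.3 CPM in the non-degradable gel and 992 ± 152 CPM in the degradable gel, against 735 ± 29.7 CPM in Matrigel (7.47e-04 and 0.0226). Cdkn2c, the related inhibitor p18, was lower in both gels, with 33.2 ± 2.47 CPM in the non-degradable gel and 34.5 ± 2.87 CPM in the degradable gel, against 46.2 ± 5.43 CPM in Matrigel (0.00874 and 0.0191). The Ccnd2 and Cdkn2c calls in degradable PEG were each lost in 3 of 16 alternatives, Matrigel replicate 1 and degradable PEG replicate 3 left out among them (highest adjusted p 0.0885 and 0.0764). The p21 relatives Cdkn1b (p27) and Cdkn1c (p57), named after their values were seen, did not pass in any comparison. Among 12 tested paralogs of the 10 genes, 2 rose and 1 fell in non-degradable PEG and 3 rose in degradable PEG over Matrigel, set against the same shares of all genes. Phlda1 rose to 295 ± 50.6 CPM in the non-degradable gel and 384 ± 30.5 CPM in the degradable gel, against 164 ± 10.7 CPM in Matrigel (7.01e-04 and 1.35e-04), while Phlda3 did not pass. Trp53inp2 rose by 0.43 ± 0.0863 in the non-degradable gel and 0.30 ± 0.0863 in the degradable gel (0.00660 and 0.0461), and Zmat2 fell in non-degradable PEG, with a log2 fold change of -0.29 ± 0.0705 (0.0189). The Trp53inp2 call in degradable PEG was lost in 7 of 16 alternatives (highest adjusted p 0.154) and the Zmat2 call in 3 (0.0855).

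Genes that p53 and p21 are known to repress through the DREAM complex, which silences mitotic genes, were lower in non-degradable PEG. Of 22 tested, 18 fell and none rose against Matrigel, with a median log2 fold change of -0.38, where 7.13% of all genes fell. In degradable PEG against Matrigel 1 fell, with a median of -0.20, where 4.79% of all genes fell. The libraries did not overlap, in either direction, for 21 of the 22 in non-degradable PEG against Matrigel, where 43.4% of all genes did not. In degradable PEG against Matrigel they did not for 16 of the 22, against 30.4% of all genes. Nusap1, a spindle protein, had 86.8 ± 6.78 CPM in non-degradable PEG and 92.3 ± 3.73 CPM in degradable PEG, against 115 ± 5.25 CPM in Matrigel (edgeR adjusted p = 0.00357 and 0.0153). Foxm1, a transcription factor of mitotic genes, had 87.9 ± 7.99 CPM in the non-degradable gel and 102.1 ± 11.5 CPM in the degradable gel, against 124 ± 8.29 CPM in Matrigel (0.00560 and 0.0802). Tpx2 and Bub1b, of the spindle and its checkpoint, fell by 0.38 and 0.35 on the log2 scale in non-degradable PEG (0.00560 and 0.00642). No gene of the list passed between non-degradable and degradable PEG, where the median was -0.20 and the largest change -0.30. The count of 18 was 11 without Matrigel replicate 1 and 10 without non-degradable PEG replicate 3. All genes changed there, in either direction, were then 1452 and 1189 rather than 2504. The single call in degradable PEG, Nusap1, was lost without Matrigel replicates 1 or 3 or degradable PEG replicate 3. With the replicate number as a block 7 genes of the list were called there, and all genes changed numbered 2783 rather than 1815. As background, these genes are transcribed in dividing cells, and the share of dividing cells was not measured.

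Pmaip1 and Gdf15 are also targets of the integrated stress response, in which ATF4 and CHOP raise amino acid and stress genes. Of 19 tested genes of that response, 8 rose in the non-degradable gel and 9 in the degradable gel against Matrigel, where 9.71% and 7.42% of all genes rose. None fell, and the medians were 0.39 and 0.42. Of the 20 genes in the list, 2 (Ddit4 and Sesn2) are also among the other p53 targets. Atf3, a stress-induced transcription factor that also binds p53, had 69.0, 21.9 and 378 CPM in non-degradable PEG and 394, 411 and 601 CPM in degradable PEG, against 4.58, 6.76 and 4.40 CPM in Matrigel. As for Pmaip1 and Gdf15, the groups did not overlap, degradable PEG was the highest and replicate 3 stood out among the non-degradable PEG libraries. The pattern was not particular to Atf3. Among the other p53 targets, Lif and Epha2 had the same order without overlap. Replicate 3 was also their highest non-degradable PEG library, at 10.2 and 124 CPM. For Btg2 and Plk3 the 2 gels overlapped. The log2 fold changes over Matrigel were 4.89 ± 0.861 in the non-degradable gel and 6.48 ± 0.914 in the degradable gel (edgeR adjusted p = 0.00334 and 0.00114), and the difference between the gels did not pass (-1.58 ± 0.715, 0.335). Without non-degradable PEG replicate 3 the log2 fold change of Atf3 over Matrigel was 3.11 in the non-degradable gel, and the difference between the gels was -3.37 and passed (0.00435, within a range of 0.00435 to 0.537 over 16 alternatives). It also passed with no filter. Chac1, which degrades glutathione, had 4.87 ± 1.66 CPM in the non-degradable gel and 5.06 ± 0.662 CPM in the degradable gel, against 1.42 ± 0.257 CPM in Matrigel (0.00117 and 0.00118). Ppp1r15a, whose protein GADD34 reverses the block of translation, had 29.6 ± 10.7 CPM in the non-degradable gel and 37.8 ± 7.30 CPM in the degradable gel, against 13.2 ± 1.93 CPM in Matrigel (0.00600 and 0.00156). Stc2, a secreted glycoprotein, had the opposite order of gels, with 43.0 ± 4.23 CPM in non-degradable PEG and 28.1 ± 1.65 CPM in degradable PEG, against 10.8 ± 1.18 CPM in Matrigel (2.89e-06 and 4.06e-05). It was the only gene of the list that passed between non-degradable and degradable PEG (0.61 ± 0.0999, 0.0189), a call lost without non-degradable PEG replicate 1 (0.0909) or degradable PEG replicate 2 (0.0952), within a range of 7.96e-06 to 0.0952. Vldlr, a lipoprotein receptor, rose by 1.48 ± 0.213 in the non-degradable gel and 0.77 ± 0.212 in the degradable gel (0.00103 and 0.0373), and the call in the degradable gel was lost in 4 of 16 alternatives (highest adjusted p 0.135). The part of the integrated stress response in the Pmaip1 and Gdf15 values was not tested.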

How the data were processed

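Polyadenylated RNA was sequenced from 9 libraries, 3 per matrix. Per the submitters' processing notes, the tools were cutadapt 1.3, STAR 2.4.2a and HTSeq 0.6.1, with the build GRCm38; per the labels' protocols, libraries came from a stranded TruSeq mRNA kit. The authors deposited whole-number read counts per gene, 1 table per library. The gene annotation and strand setting used for counting are not stated there.

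The 5 tally rows of each table were removed; reads without a feature were 7.29% to 11.2% of a library and ambiguous reads 1.09% to 1.16%. GENCODE M21 gave symbols for 46005 of 46517 genes. The edgeR function filterByExpr kept 14870 genes. A single edgeR model with quasi-likelihood tests was fitted to all 9 libraries, 1 mean per matrix, after trimmed-mean (TMM) scaling. It left 6 residual degrees of freedom, gave the 3 contrasts and was tested on simulated counts first. P-values were adjusted by Benjamini-Hochberg over all tested genes at a threshold of 0.05. Intervals are 95% intervals from the fitted standard error. CPM use the scaled library sizes, and levels per kilobase use GENCODE exon lengths. The p53 consensus was scanned in RefSeq promoter windows, and matches with 1 or 2 mismatches were added after seeing the data.

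The members and lists were chosen with earlier results of these data known. All 10 members were named. From each further list, up to 4 genes with the smallest adjusted p under 0.05 per comparison were named, and Trp53, Mdm4 and Ppm1d always; 1 gene that this rule chose is not reported here. Alternatives were DESeq2 size factors, upper-quartile scaling, the DESeq2 Wald test, no filter, a mean of at least 10 CPM, only the compared groups, a replicate block and leaving out each library. Whether equal replicate numbers pair samples was checked by the correlation of deviations from group means. Non-degradable PEG and Matrigel libraries of equal number gave 0.331, 0.176 and 0.186, and those of unequal number gave -0.257 to 0.0386. Any pairing thus comes from the data and not from the labels, and the main model does not use it. Software versions were DESeq2 1.42.0, limma 3.58.1, edgeR 4.0.16 and R 4.3.3.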

Additional observations from a re-analysis of the deposited data

How the results depend on the processing

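Of 30 results for single p53 targets, 16 kept their direction and their side of the threshold in all alternatives run (16 for each gene other than Bbc3, which had 15 because it does not reach a mean of 10 CPM), and 8 changed sign somewhere, none of them a called one. The genes changed numbered 2504 in non-degradable PEG against Matrigel, 1815 in degradable PEG against Matrigel and 190 in non-degradable against degradable PEG. With a mean of at least 10 CPM they were 1511, 948 and 91, and with the replicate block 3877, 2783 and 542. The last comparison gave 511 with the DESeq2 Wald test and 521 with no filter. Leaving out 1 library gave 1189 to 3247, 1086 to 2395 and 19 to 242. The p53 targets changed numbered 3, 4 and 1, and 2 to 4, 2 to 4 and 0 to 1 when 1 library was left out. Between the PEG gels they were 2 with no filter, where Gdf15 was added (adjusted p = 0.0467), and 0 with a mean of at least 10 CPM, where Pmaip1 missed the threshold (0.0547). Mdm2 in non-degradable PEG against Matrigel passed with upper-quartile scaling (0.0383), the DESeq2 Wald test (0.0388), a mean of at least 10 CPM (0.0412) and without degradable PEG replicate 2 (0.0473). In that comparison Bax turned to 0.0083 with upper-quartile scaling and 0.0123 with a mean of at least 10 CPM, and Zmat3 turned to -0.0044 and Phlda3 to -0.0107 with no filter. With 1 library left out, the log2 fold changes there ran from -0.0528 to 0.0671 for Bax, -0.153 to 0.103 for Bbc3, -0.0606 to 0.126 for Zmat3 and -0.114 to 0.139 for Phlda3. In degradable PEG against Matrigel they ran from -0.0952 to 0.243 for Trp53inp1, -0.0491 to 0.186 for Ccng1 and -0.125 to 0.0619 for Zmat3, and between the PEG gels from -0.0174 to 0.217 for Cdkn1a. The cause of these changes was not tested.

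In degradable PEG against Matrigel, libraries of equal number gave correlations of 0.258, 0.0712 and 0.226 by the same check, and those of unequal number gave -0.238 to 0.0392. In non-degradable against degradable PEG, equal numbers gave 0.288, 0.0197 and 0.511 and unequal ones -0.454 to 0.257, so these overlapped. The replicate block changed no call of a p53 target other than Mdm2 in non-degradable PEG against Matrigel. Of 49 calls of the genes outside the 10 that the naming rule chose, 36 held in all alternatives run and 13 were lost in some. Settings for counts of whole lists were added after seeing the data. The higher count of integrated stress response genes in non-degradable PEG against Matrigel was 5 rather than 8 with a mean of at least 10 CPM, a filter that leaves fewer genes to test. The lowest of the 10, Bbc3, rests on 205 to 380 reads per library. Its SE in non-degradable PEG against Matrigel (0.164) was still below those of Pmaip1 (0.201) and Gdf15 (0.180).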
